A study of Homo sapiens with 6 samples.

Results

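Kinesins are motor proteins that use ATP to walk along microtubules or to take them apart, and in NCI-H520 cells their genes were followed after the platinum drug cisplatin. The family was taken as every protein-coding gene whose symbol is KIF followed by a number, with an optional letter and digit, leaving out pseudogenes and antisense genes. Of the 61552 genes listed, 40 carried such a symbol and 39 were protein coding. From textbook roles, and with earlier results of these data known, the 39 genes were divided into 13 mitotic kinesins, 13 transport kinesins, 6 kinesins of the cilium and 7 others. KIF2A, which works both at spindle poles and in neurites, was placed among the others. NCI-H520 is an established human cell line of lung squamous cell carcinoma, labelled wild type. All cells were grown in RPMI-1640 with fetal bovine serum, and each group had 3 libraries of total RNA. The PBS group received phosphate-buffered saline and the cisplatin group 2 µM cisplatin, which crosslinks DNA, both for 48 h. By its title the series deals with SOX2 and drug resistance in this cancer; the comparison shows how kinesin transcripts differ after the drug.

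Mitotic kinesins build the bipolar spindle, move and align chromosomes on it, and split the cell at the end of division, and many of their genes are transcribed mainly in the G2 and M phases of the cell cycle. Transport kinesins carry vesicles, organelles and protein complexes towards the growing ends of microtubules in cells at every stage, and are best known from neurons, where cargo must travel far. A smaller set works in or at the base of cilia, and a few members bind microtubules without being motors at all. Cisplatin adducts stall replication and activate checkpoints that can hold cells in S or G2 phase.

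Expected counts assigned to genes totalled 9121180 to 16724285 per library. Mitochondrially encoded genes took 4.15% to 6.05% of the counts in the PBS libraries and 3.26% to 4.13% in the cisplatin libraries, and the part of this shift in the results was not tested. Of the markers of squamous epithelium, SOX2 was detected at 156 and 152 TPM (a level scaled for transcript length and library) in PBS and cisplatin, KRT5 was low at 3.32 and 2.82 TPM, and TP63 and KRT14 were near 0 in every library. KRT6A had 15, 29 and 27 counts in PBS and 18, 28 and 37 in cisplatin. Its TPM stood at 36.3, 1.0 and 1.16 in PBS and at 0.95, 1.47 and 1.13 in cisplatin. The highest TPM, in PBS replicate 1, thus rested on the fewest counts. Of the 8 tested epithelial and squamous markers 4 were called higher after cisplatin (CDH1, KRT8, KRT18 and KRT19, by 0.67, 0.39, 0.28 and 0.32 on the log2 scale). EPCAM read -0.12 and was not called. With a correction for transcript length, described further on, EPCAM was called lower (-0.26, adjusted p = 0.0104, edgeR). The KRT18 call was lost with that correction (0.106) and without cisplatin replicate 2 (0.0525). On log2(TPM + 1) with limma the calls of KRT18 (0.135) and CDH1 (0.119) were lost. The part of these markers in the results was not tested. Of 5 leukocyte markers, PTPRC and CD3E were at 0 counts in all 6 libraries. On the scale of counts divided by the TMM-scaled library size (CPM), the summed level of the leukocyte list ran from 1.90 to 2.17 CPM in PBS. In cisplatin it ran from 3.74 to 4.58 CPM, carried by LYZ. CD14, the other leukocyte marker tested, was called lower (log2 fold change -0.98, adjusted p = 0.0467, edgeR quasi-likelihood test), a call lost whichever library was left out. The summed level of 5 fibroblast markers ran from 10.4 to 15.3 CPM in PBS and from 23.0 to 24.5 CPM in cisplatin, carried by COL1A1. That of 6 neuronal and neuroendocrine markers ran from 171 to 199 CPM in PBS and from 229 to 238 CPM in cisplatin. This rise was carried by TUBB3, at 74.2 and 133 CPM. Of the 4 tested, 1 (TUBB3) was called higher and 3 were not called. Those 3 had log2 fold changes below 0 (SYP -0.55, MAP2 -0.18 and ENO2 -0.08). The part of these lists in the results was not tested. The labels do not say whether the libraries came from separate cultures, so p-values measure the spread between these libraries, which may be technical.

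Promoters of genes that peak in G2 and M phase often carry CCAAT boxes, which the factor NF-Y binds, and a cell cycle homology region (CHR), which MuvB complexes bind. Both strands of the RefSeq windows from 250 bases before to 50 after the transcription start (GRCh38.p14) were searched for CCAAT and for the CHR letters TTTGAA and TTCGAA. The table held 33 of the 39 members. CCAAT was found in 10 of 13 mitotic kinesins and in 4 of 11 transport kinesins, against 34.6% of all 35116 windows. Either CHR form was found in 10 of 13 mitotic kinesins and in 1 of 11 transport kinesins, against 16.4% of all windows. Both motifs stood together in 9 of 13 mitotic kinesins, against 6.38% of all windows, in 1 of 11 transport kinesins, in 1 of 4 cilium kinesins and in 0 of 5 others. A member with several windows was counted where any of them held the motif. Windows of 6 members follow, 5′ to 3′ on the strand of the gene, with CCAAT boxes and CHR letters, or their reverse complements, in capitals. They are KIF2C, KIF20A, KIF18A and KIF4A, the mitotic genes with the smallest adjusted p, KIF11, a mitotic gene that did not pass the test, and KIF5B, the transport gene with the smallest adjusted p.
KIF2C, chr1:44739587-44739886, plus strand: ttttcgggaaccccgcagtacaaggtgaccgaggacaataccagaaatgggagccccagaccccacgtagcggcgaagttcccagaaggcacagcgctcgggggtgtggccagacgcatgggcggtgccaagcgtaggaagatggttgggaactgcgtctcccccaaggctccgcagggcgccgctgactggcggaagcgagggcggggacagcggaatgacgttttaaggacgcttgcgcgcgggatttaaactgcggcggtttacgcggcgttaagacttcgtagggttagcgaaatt
KIF20A, chr5:138178862-138179161, plus strand: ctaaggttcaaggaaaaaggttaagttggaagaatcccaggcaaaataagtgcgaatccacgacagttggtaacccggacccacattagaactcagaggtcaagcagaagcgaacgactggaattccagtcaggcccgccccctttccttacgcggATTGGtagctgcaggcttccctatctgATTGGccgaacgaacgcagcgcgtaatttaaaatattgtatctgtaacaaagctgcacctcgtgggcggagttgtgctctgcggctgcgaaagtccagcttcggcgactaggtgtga
KIF18A, chr11:28108107-28108406, minus strand: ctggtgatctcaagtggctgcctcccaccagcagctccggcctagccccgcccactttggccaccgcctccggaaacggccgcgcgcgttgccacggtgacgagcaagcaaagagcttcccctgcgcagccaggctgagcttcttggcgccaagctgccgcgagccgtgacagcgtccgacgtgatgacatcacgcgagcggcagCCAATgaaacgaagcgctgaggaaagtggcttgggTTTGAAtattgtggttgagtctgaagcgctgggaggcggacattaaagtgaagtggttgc
KIF4A, chrX:70289854-70290153, plus strand: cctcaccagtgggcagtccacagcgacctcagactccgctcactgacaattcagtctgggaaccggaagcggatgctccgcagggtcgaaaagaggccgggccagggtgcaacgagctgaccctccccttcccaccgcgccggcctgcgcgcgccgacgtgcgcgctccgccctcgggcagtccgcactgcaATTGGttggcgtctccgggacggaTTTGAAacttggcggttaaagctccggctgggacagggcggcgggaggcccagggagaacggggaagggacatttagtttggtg
KIF11, chr10:92592880-92593179, plus strand: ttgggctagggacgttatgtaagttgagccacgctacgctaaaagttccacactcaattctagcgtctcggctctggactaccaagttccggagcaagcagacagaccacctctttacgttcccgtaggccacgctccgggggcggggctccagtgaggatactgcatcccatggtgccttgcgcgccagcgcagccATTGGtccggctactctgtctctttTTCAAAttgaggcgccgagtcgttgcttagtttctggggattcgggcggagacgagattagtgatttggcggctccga
KIF5B, chr10:32056376-32056675, minus strand: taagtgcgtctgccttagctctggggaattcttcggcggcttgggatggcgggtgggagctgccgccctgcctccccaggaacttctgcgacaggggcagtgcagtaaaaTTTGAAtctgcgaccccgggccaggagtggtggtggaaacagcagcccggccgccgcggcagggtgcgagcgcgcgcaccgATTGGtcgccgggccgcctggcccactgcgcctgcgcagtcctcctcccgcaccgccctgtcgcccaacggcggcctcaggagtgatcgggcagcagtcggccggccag
The KIF2C window held neither motif. The KIF20A window held CCAAT at 94 and 67 bases before the start and no CHR letters. In KIF18A, KIF4A and KIF11 a CCAAT box began 45, 58 and 53 bases before the start and the CHR letters 10, 34 and 28 bases before it. In KIF5B the order was the reverse, with CHR letters 140 and CCAAT 59 bases before the start. A match describes the letters of the window, not a bound site.

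Cisplatin libraries held more transcripts of a subset of mitotic kinesins and fewer of several transport and cilium kinesins, and no member differed by as much as 2-fold. Of the 32 members with enough counts to test, 6 were higher and 8 were lower after cisplatin at an adjusted p under 0.05 (edgeR quasi-likelihood test, Benjamini-Hochberg over 15063 genes). These 14 genes are 43.8% of the members tested, and over all genes 38.2% were called, 18.9% higher and 19.3% lower, so the share called in the family lay near the background. Directions are given here by role, and no test compared the roles. Of 11 mitotic kinesins tested, 5 were higher, 0 were lower and 6 did not pass, with a median log2 fold change of 0.18. Of 12 transport kinesins tested, 1 was higher and 4 were lower, with a median of -0.19. Of 4 cilium kinesins 2 were lower, and of 5 others 2 were lower, with none higher in either set and medians of -0.23 and -0.21. The median over all genes tested was 0.00, but over all genes of 4500 to 6000 bases it was -0.23, with 39.0% called lower. The median length of the tested transport kinesins was 5788 bases. With a correction for transcript length, described further on, 2 transport kinesins were higher and 1 lower, with a median of 0.03. In 18 of the 32 members the CPM of the groups did not overlap, against 49.7% of all genes, and 12 of the 14 called members were among them. In RNA from whole cultures, a different share of cells in mitosis and a different level per cell cannot be told apart.

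**Figure D1:**
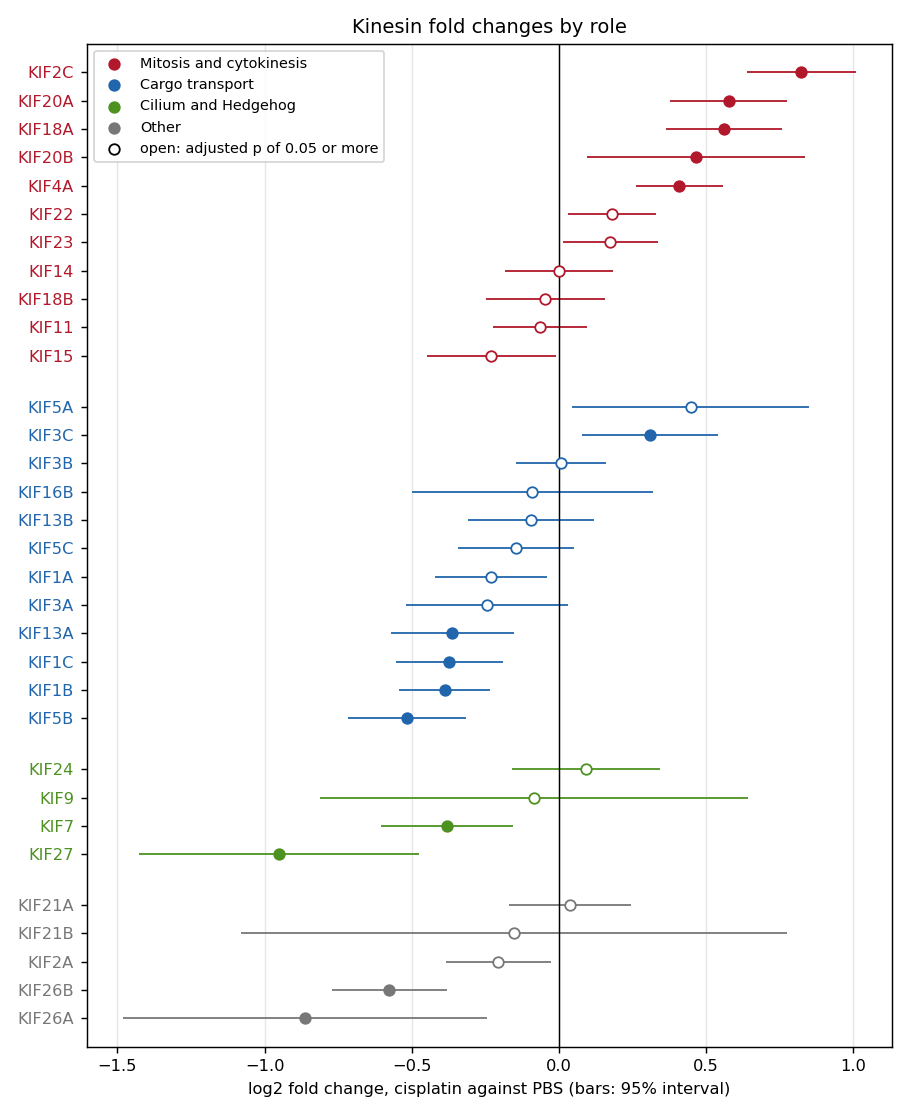
Log2 fold change of each of the 32 tested kinesins, cisplatin minus PBS, on the horizontal axis, with 95% intervals from the edgeR quasi-likelihood fit and colours for the 4 roles; filled points had an adjusted p under 0.05. The 5 called mitotic kinesins lie to the right of 0, and 4 of the 5 called transport kinesins to the left.

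KIF2C, the kinesin that removes tubulin from microtubule ends at centromeres and helps to correct faulty chromosome attachments, rose most. Its level was 450, 378 and 451 CPM in the PBS libraries and 782, 772 and 710 CPM in the cisplatin libraries. All 3 cisplatin libraries lay far above the highest PBS library. The fold change was 1.77 (95% interval 1.56 to 2.01, adjusted p = 3.4e-05). KIF20A, which carries the chromosomal passenger complex to the spindle midzone in anaphase, stood at 136, 114 and 141 CPM in PBS and at 207, 199 and 178 CPM in cisplatin. It rose 1.49-fold (1.30 to 1.71, adjusted p = 5.4e-04), and the groups did not overlap.

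KIF18A, a kinesin-8 that damps the swinging of chromosomes at the metaphase plate, was at 41.1, 47.4 and 43.2 CPM in PBS and at 68.4, 68.1 and 58.8 CPM in cisplatin. It rose 1.48-fold (1.29 to 1.69, adjusted p = 6.0e-04), and its lowest cisplatin library was above every PBS library; on log2(TPM + 1) with limma the adjusted p was 0.0574. KIF4A, a chromosome-bound kinesin that also sets the length of the central spindle, had the tightest replicates of these genes. It read 120, 125 and 121 CPM in PBS and 158, 163 and 166 CPM in cisplatin, a 1.33-fold rise (1.20 to 1.47, adjusted p = 7.1e-04; 0.0525 on TPM). KIF4B, its intronless near-copy, ran from 0 to 0.445 CPM, and reads of the 2 copies may be split between them.

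KIF20B, a relative of KIF20A that acts late in cytokinesis, passed narrowly. Its values were 57.3, 93.0 and 59.5 CPM in PBS and 77.9, 113 and 99.3 CPM in cisplatin, and the PBS library of replicate 2 lay above 1 cisplatin library. The fold change was 1.38 (1.07 to 1.78, adjusted p = 0.0477). Adjusted p rose to 0.177 without PBS replicate 1, 0.170 without PBS replicate 3, 0.143 without cisplatin replicate 2, 0.101 without cisplatin replicate 3, 0.204 with DESeq2 and 0.162 on TPM, and over all 18 alternatives it ran from 6.6e-06 to 1. The other 4 called mitotic kinesins kept their call whichever library was left out.

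**Figure D2:**
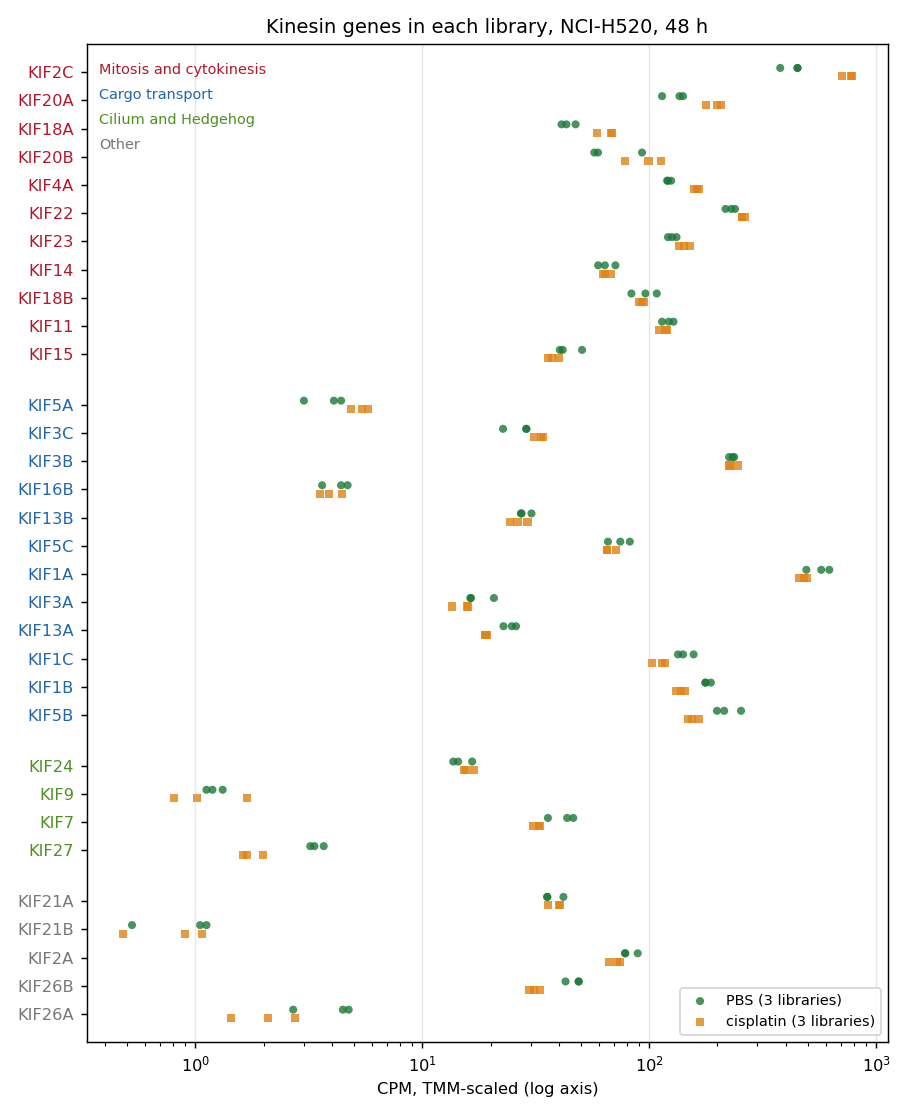
CPM on a log axis for the 32 tested kinesins, 1 row per gene grouped by role, with a circle for each of the 3 PBS libraries and a square for each of the 3 cisplatin libraries. KIF2C, KIF20A, KIF18A and KIF4A have all squares to the right of all circles, KIF5B, KIF1B, KIF1C and KIF13A the opposite order, and the points of KIF11 overlap.

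The remaining mitotic kinesins did not pass. KIF11, the kinesin-5 that pushes spindle poles apart and the target of several antimitotic inhibitors, was at 114, 128 and 122 CPM in PBS and at 120, 118 and 111 CPM in cisplatin. Its groups overlapped, and the fold change was 0.957 with an interval from 0.856 to 1.07 (adjusted p = 0.524); with a correction for transcript length, described further on, its log2 fold change turned from -0.06 to 0.14 and did not pass either. KIF23, the motor of the centralspindlin complex of the midzone, was at 121, 132 and 126 CPM in PBS and at 143, 151 and 135 CPM in cisplatin. Those groups did not overlap, but the fold change of 1.13 (1.01 to 1.26) had an adjusted p of 0.0805; without PBS replicate 2 it was 0.0461, and over 18 alternatives it ran from 0.0188 to 1.

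KIF22, a chromokinesin that pushes chromosome arms away from the poles, also read 1.13 (1.02 to 1.26, adjusted p = 0.056), and passed narrowly under upper quartile scaling (0.0416), limma-voom (0.0487), a stricter count filter (0.0399) and with protein-coding genes only (0.0457), of 18 alternatives with adjusted p from 0.0399 to 1. An antisense gene shares 13.0% of its exonic bases, and strand use in counting is not given in the sources used here. KIF15, which backs up KIF11 in the spindle, had a fold change of 0.853 (0.733 to 0.993, adjusted p = 0.0914). KIF18B, which shortens astral microtubules, and KIF14, which acts with citron kinase in cytokinesis, read 0.969 and 1.0. KIF2B had no count in any library, and KIF4B was too low to test.

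Among transport kinesins the ubiquitous heavy chain of kinesin-1, KIF5B, had the largest called decrease. It was at 199, 254 and 214 CPM in PBS and at 154, 165 and 148 CPM in cisplatin. Every cisplatin library lay below every PBS library, and the level was 1.43-fold lower (fold change 0.699, 0.608 to 0.803, adjusted p = 0.00113). Its neuronal paralogs did not pass: KIF5C had a fold change of 0.904 (0.788 to 1.04) and KIF5A, at 3.83 and 5.36 CPM, of 1.36 (1.03 to 1.80).

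The kinesin-3 motors KIF1B and KIF1C, which move mitochondria and vesicles, both fell. KIF1B was at 187, 177 and 177 CPM in PBS and at 132, 138 and 144 CPM in cisplatin, 1.31-fold lower (adjusted p = 0.00125). KIF1C was at 141, 134 and 157 CPM in PBS and at 114, 103 and 117 CPM in cisplatin, 1.29-fold lower (adjusted p = 0.00428). Neither gene had overlapping groups. With the correction for transcript length both calls were lost, KIF1B at a log2 fold change of -0.05 (adjusted p = 0.64) against -0.39 without it, and KIF1C at -0.12 (adjusted p = 0.235) against -0.37; on TPM KIF1C had an adjusted p of 0.0712. KIF1A, the axonal carrier of synaptic vesicle precursors, was the most abundant transport kinesin in these lung cells and read 573, 493 and 622 CPM in PBS and 482, 457 and 497 CPM in cisplatin. Its groups overlapped, and the fold change of 0.852 (0.746 to 0.972) missed the threshold at an adjusted p of 0.0542. It passed in 5 of 18 alternatives, with adjusted p of 0.00858 without PBS replicate 2, 0.0285 with no low-count filter, 0.0376 with DESeq2, 0.0385 with the replicate number as a block and 0.0465 with protein-coding genes only. Over all 18 the adjusted p ran from 0.00858 to 1, and with the length correction the log2 fold change turned from -0.23 to 0.05.

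KIF13A, an endosome and recycling motor, was at 22.8, 25.9 and 24.8 CPM in PBS and at 19.0, 19.0 and 19.3 CPM in cisplatin. It fell 1.29-fold (adjusted p = 0.0111) with no overlap, a call lost with the length correction (adjusted p = 0.147) and on TPM (adjusted p = 0.313). KIF13B and KIF16B, which carry membrane cargo of the same kind, had fold changes of 0.936 (0.807 to 1.09) and 0.939 (0.707 to 1.25) and did not pass.

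KIF3A and KIF3B pair as the motor of kinesin-2, which serves transport in the cytoplasm and inside cilia, and KIF3C is an alternative partner of KIF3A. KIF3A was at 16.4, 20.7 and 16.3 CPM in PBS and at 13.5, 15.9 and 15.8 CPM in cisplatin. The groups did not overlap, yet the fold change of 0.844 (0.697 to 1.02) did not pass (adjusted p = 0.149). KIF3B read 232 ± 6.10 CPM in PBS and 233 ± 11.8 CPM in cisplatin (SD, n = 3), a fold change of 1.01 (0.905 to 1.12).

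KIF3C was the only transport kinesin called higher, at 28.7, 22.7 and 28.8 CPM in PBS and 31.2, 33.3 and 34.2 CPM in cisplatin. The groups did not overlap and the fold change was 1.24 (1.06 to 1.45, adjusted p = 0.0374). Adjusted p was 0.0966 without PBS replicate 2, 0.061 without cisplatin replicate 1, 0.0731 without cisplatin replicate 2, 0.112 without cisplatin replicate 3, 0.0571 with DESeq2 and 0.609 on TPM, within a range of 0.00248 to 1 over 18 alternatives. KIF17, a kinesin-2 of dendrites and cilia, was too low to test.

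KIF27 and KIF7 are kinesin-4 relatives. KIF7 organises the tip of the primary cilium and regulates Hedgehog signalling. KIF27 had the largest fold change of the family, on a low level of 3.68, 3.35 and 3.21 CPM in PBS and 1.99, 1.69 and 1.62 CPM in cisplatin. The groups were well apart, and the level was 1.93-fold lower (fold change 0.517, 0.372 to 0.719, adjusted p = 0.00497). Antisense genes share 6.77% and 8.58% of the exonic bases of KIF27. KIF7 was at 43.5, 35.8 and 46.3 CPM in PBS and at 33.1, 30.7 and 32.6 CPM in cisplatin, 1.30-fold lower (adjusted p = 0.0123). Its adjusted p was 0.0537 without PBS replicate 3 and 0.193 on TPM, within a range of 0.00194 to 1 over 18 alternatives. TICRR on the opposite strand shares 11.8% of the exonic bases of KIF7 and had a log2 fold change of 0.14 (adjusted p = 0.167).

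KIF24, which holds back cilium formation at the mother centriole, read 1.07 (0.896 to 1.27). KIF9, a kinesin of motile cilia, had 1.21 and 1.17 CPM in PBS and cisplatin, and 14.9% of its exonic bases overlap the antisense gene KIF9-AS1, whose log2 fold change was -1.02 (adjusted p = 0.0162). KIF19 was at 0 in every library, and KIF6 was too low to test.

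KIF26A and KIF26B have a motor domain that lacks ATPase activity and act in signalling and cell adhesion. KIF26B was at 49.0, 42.8 and 48.8 CPM in PBS and at 29.7, 31.2 and 33.0 CPM in cisplatin, 1.49-fold lower with no overlap (adjusted p = 5.0e-04). With the length correction its log2 fold change was -0.12 (adjusted p = 0.352) against -0.58 without it, and on TPM the adjusted p was 0.0662. KIF26A was at 4.47, 2.7 and 4.74 CPM in PBS and at 2.09, 1.43 and 2.76 CPM in cisplatin, and the groups overlapped by a narrow margin. It was 1.82-fold lower (adjusted p = 0.031), but adjusted p was 0.0871 without PBS replicate 1, 0.126 without PBS replicate 3, 0.0791 without cisplatin replicate 1, 0.102 without cisplatin replicate 2, 0.146 with the length correction and 0.12 on TPM. Over 17 alternatives it ran from 0.00292 to 0.614.

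KIF2A, a tubulin-removing kinesin like KIF2C that works at spindle poles and in neurites, read 0.867 (0.766 to 0.981, adjusted p = 0.0647; 0.043 on TPM) with groups that did not overlap. KIF21A and KIF21B, which pause microtubule growth, had fold changes of 1.03 and 0.900 and did not pass. KIF12 and KIF25 were among the 7 members too low to test, whose counts ran from 0 to 8 per library. Where a member was at 0 counts, up to 3 counts in that library remain possible from counting error alone.

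On the per-length scale KIF2C was the most abundant kinesin, with 201, 160 and 234 TPM in PBS and 346, 323 and 295 TPM in cisplatin. KIF22 came next by mean at 133 and 145 TPM, then KIF1A at 102 and 76.0 TPM, KIF20A at 55.1 and 77.2 TPM and KIF23 at 47.9 and 52.6 TPM. In the PBS libraries KIF23, KIF3B and KIF5B, with means of 47.9, 43.9 and 44.4 TPM, overlapped in range and have no order. Of the 32 tested members, 19 had a mean of at least 10 TPM.

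Summed over the 13 genes, mitotic kinesins held 1480, 1441 and 1504 CPM in the PBS libraries and 2004, 2040 and 1919 CPM in the cisplatin libraries. Summed transport kinesins held 1495, 1478 and 1591 CPM in PBS and 1297, 1262 and 1302 CPM in cisplatin. The ratio of the mitotic to the transport sum was 0.990, 0.975 and 0.945 in PBS and 1.55, 1.62 and 1.47 in cisplatin on CPM, where long transcripts gain counts. On TPM, which is per length, it was 1.95, 2.08 and 2.17 in PBS and 3.49, 3.51 and 3.28 in cisplatin. Dividing by length does not remove a trend of fold change with length. The part of that trend, described next, in these ratios was not tested. On CPM, KIF2C alone held 30.4%, 26.2% and 30.0% of the mitotic sum in PBS and 39.0%, 37.9% and 37.0% in cisplatin. Against KIF11, a mitotic gene whose level did not pass the test, KIF2C stood at 3.95, 2.95 and 3.69 times its CPM in PBS and at 6.52, 6.55 and 6.37 times in cisplatin.

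Transcript length moved with the direction of change in these libraries, among kinesins and among all genes. The median length was 3278 bases for the tested mitotic kinesins and 5788 bases for the transport kinesins, against 2360 bases for all genes tested. Over all genes the median log2 fold change was 0.19 below 1500 bases, 0.03 from 1500 to 3000, -0.11 from 3000 to 4500, -0.23 from 4500 to 6000 and -0.34 from 6000 bases up. In that longest class 53.8% of genes were called lower and 4.19% higher; it held 9 kinesins, of which 3 were lower and 0 higher. Across genes, which are not independent replicates and share the libraries, Spearman's rho of length with log2 fold change was -0.353 over 15063 genes and -0.444 over the 32 kinesins. Within the 11 mitotic kinesins it was -0.40, and within the 12 transport kinesins -0.336.

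**Figure D3:**
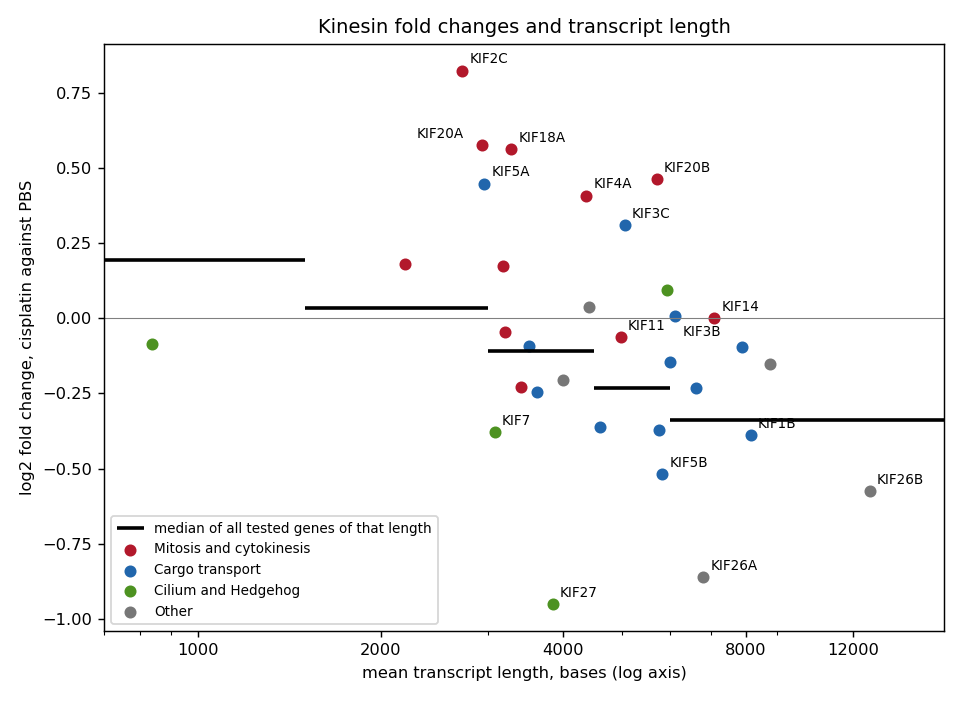
Log2 fold change (cisplatin minus PBS) against mean transcript length in bases (log axis) for the 32 tested kinesins, coloured by role, with the median of all genes in each of 5 length classes as black bars. The bars fall from 0.19 in the shortest class to -0.34 in the longest; KIF2C, KIF20A, KIF18A and the longer KIF4A lie above them, and KIF5B and KIF27 below.

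With the length trend of each library removed as an offset in the edgeR fit, 10 members were higher and 3 lower, against 17.1% and 16.9% of all genes. The mitotic kinesins then had 7 higher and 0 lower, with a median log2 fold change of 0.31. KIF2C (0.84), KIF20A (0.62), KIF18A (0.63), KIF4A (0.57) and KIF20B (0.71) remained higher, and KIF14 (0.31) and KIF23 (0.23) were added. Transport kinesins had 2 higher and 1 lower, and their median moved from -0.19 to 0.03. KIF5B stayed lower (-0.27, adjusted p = 0.0253), while KIF1B (-0.05), KIF1C (-0.12) and KIF13A (-0.18) no longer passed, with adjusted p of 0.64, 0.235 and 0.147. Over all 18 alternatives adjusted p ran from 6.5e-08 to 1 for KIF5B, from 2.5e-05 to 1 for KIF1B, from 3.3e-04 to 1 for KIF1C and from 0.0106 to 1 for KIF13A, the value of 1 coming from the test against a 1.5-fold change. KIF3B (0.27) joined KIF3C (0.52) among the higher genes. KIF11, KIF18B, KIF1A, KIF5C, KIF13B, KIF16B and KIF21B turned from below to above 0, and none of these 7 passed with or without the correction.

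KIF27 (-0.83) and KIF7 (-0.33) kept their call under the same correction, KIF26B (-0.12) and KIF26A (-0.56) lost it, and KIF24 (0.35) was called higher. The correction uses the deposited lengths, and the part of RNA integrity or library preparation in the trend was not tested. On log2(TPM + 1) with limma, 2 members were higher and 4 lower, against 8.02% and 11.0% of all genes. Tested against a 1.5-fold change with glmTreat, 0 members passed in either direction, against 2.02% higher and 1.18% lower over all genes, and KIF2C came nearest (adjusted p = 0.051).

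**Figure D4:**
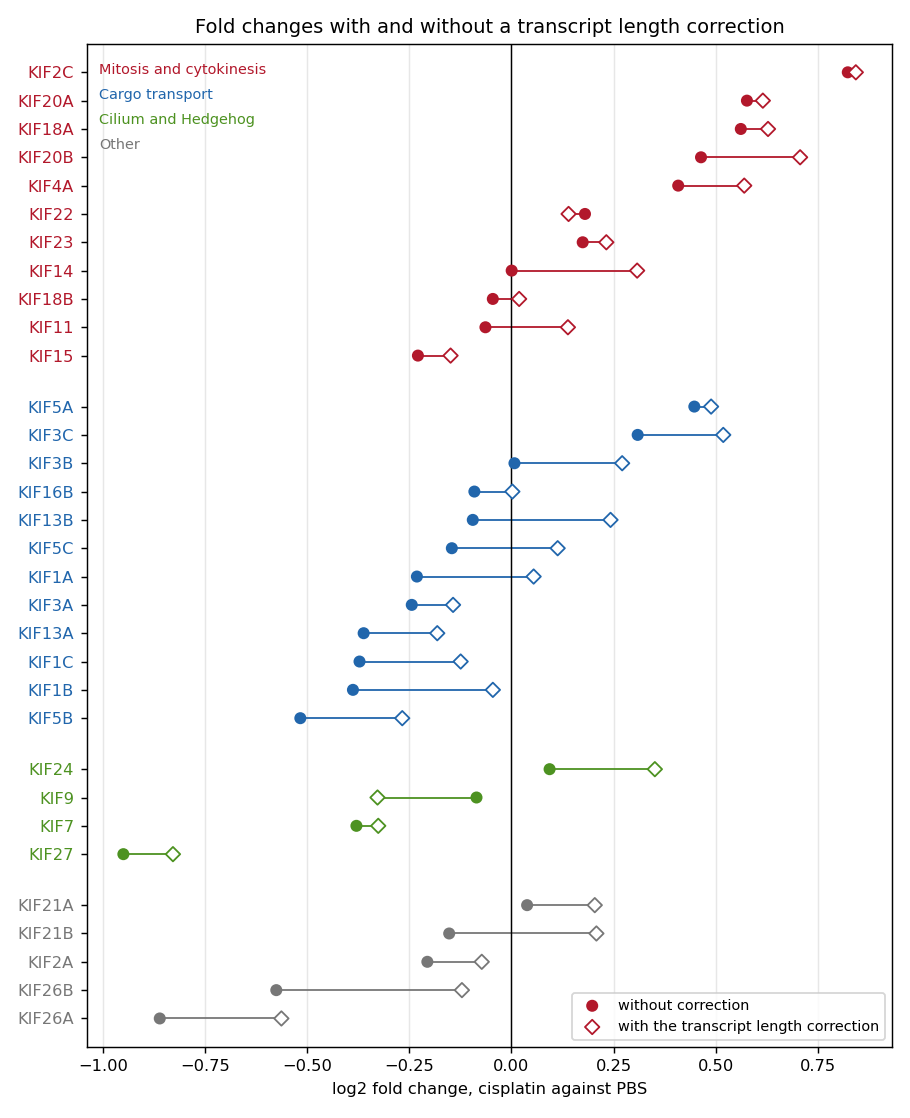
Log2 fold change (cisplatin minus PBS, horizontal axis) of each of the 32 tested kinesins, 1 row per gene coloured by role, with a filled circle for the fit without the length correction and an open diamond for the fit with it. Most diamonds lie to the right of their circles; KIF1B moves from -0.39 to -0.05 and KIF2C from 0.82 to 0.84.

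A change between isoforms of different length would move the mean transcript length of a gene. One between isoforms of like length would not. The test took genes with at least 50 counts in every library and a length that varied between libraries. Among the 25 members of this kind, no member's length passed (limma on log2 length, adjusted over 9890 genes), nor did any of the 9890 genes. At an unadjusted p under 0.05 there were 4 members and 13.0% of all genes. KIF2A had the smallest of these p-values, with mean lengths of 3880, 3868 and 3861 bases in PBS and 4110, 4183 and 4100 bases in cisplatin. Its groups did not overlap, but the adjusted p was 0.149. The others were KIF22, KIF7 and KIF18A, of which KIF18A was longer after cisplatin (3210 and 3347 bases) and KIF22 (2213 and 2169) and KIF7 (3239 and 2924) were shorter.

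Among 4 kinesins whose symbols fall outside the KIF pattern, KIFC1 and KIFC2 were called higher. KIFC1, a minus-end motor that gathers extra centrosomes, read 101, 83.9 and 98.4 CPM in PBS and 122, 113 and 116 CPM in cisplatin (log2 fold change 0.31, adjusted p = 0.0116; 0.0578 without cisplatin replicate 1 and 0.185 on TPM). KIFC2 had the same log2 fold change of 0.31 (adjusted p = 0.0293), which was lost without PBS replicate 1 (0.097), PBS replicate 2 (0.0518) or cisplatin replicate 3 (0.155) and on TPM (0.376). RPL12P1 overlaps 12.7% of the exonic bases of KIFC1 and FOXH1 17.8% of those of KIFC2, on the opposite strand. CENPE, the long kinesin that links kinetochores to microtubules, was at 165 ± 52.2 CPM in PBS and 216 ± 39.5 CPM in cisplatin (SD, n = 3) with overlapping groups (adjusted p = 0.106). It passed in 4 of 18 alternatives, with adjusted p of 0.00232 without PBS replicate 2, 0.00731 with the replicate number as a block, 0.0047 with the length correction and 5.3e-05 with no low-count filter, within a range of 5.3e-05 to 1. KIFC3 read 0.01 on the log2 scale.

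Of 22 genes for partners of mitotic kinesins and other proteins of the spindle and of cell division, 14 were higher and 0 lower. The share higher was 63.6%, against 18.9% of all genes, and the median log2 fold change was 0.44. PLK1, the kinase recruited by KIF20A, rose by 0.70 (adjusted p = 3.8e-05). AURKA, the spindle pole kinase, rose by 0.73 (adjusted p = 4.2e-05), and PSRC1, which recruits KIF2A to spindle microtubules, by 0.76 (adjusted p = 4.5e-05). Among the 8 that did not pass were PRC1, the midzone partner of KIF4A (0.14), and MAPRE1, the plus-end protein that KIF18B binds (-0.08). PRC1 shares 57.6% of its exonic bases with a gene on the same strand, and PLK1 11.6% with an antisense gene. No test compared these genes with the kinesins.

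Of 16 kinesin light chains and cargo adaptors tested, 2 were higher and 2 lower, with a median of 0.05; the 25.0% called lay below the 38.2% of all genes. The kinesin-1 light chain KLC2 fell from 81.8, 70.6 and 81.2 CPM in PBS to 44.7, 43.5 and 52.3 CPM in cisplatin (log2 fold change -0.73, adjusted p = 1.6e-04), while KLC1 did not pass (-0.15, adjusted p = 0.176). KLC1 shares 29.9% of its exonic bases with XRCC3 on the opposite strand and 10.3% with a gene on the same strand. GRIP1, which ties KIF5 to receptor cargo, fell from 2.54 to 0.577 CPM (-2.17, adjusted p = 2.6e-04). HAP1 was higher on counts (0.95, adjusted p = 0.0058), and its TPM was 5.23, 0.83 and 0.65 in PBS and 1.83, 1.07 and 1.47 in cisplatin. On TPM, PBS replicate 1 lay above all other libraries and the other 2 PBS libraries below all cisplatin libraries, and the call was lost (adjusted p = 0.861). KLC4 was at the threshold (0.28, adjusted p = 0.0499), and its adjusted p ran from 0.0899 to 0.127 in the fits that lost the call when PBS replicate 1 or 2 or any cisplatin library was left out. Its call was also lost with total count scaling (0.0531), the replicate number as a block (0.0545), no low-count filter (0.0776) and DESeq2 (0.107). The length correction (0.148), TPM (0.722) and the test against a 1.5-fold change ended it too. KIFAP3, the subunit that joins KIF3A and KIF3B, read -0.02.

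Dynein, the motor that runs opposite to most kinesins, and its cofactor dynactin had 9 of 22 genes higher and 3 lower (40.9% and 13.6%, against 18.9% and 19.3% of all genes), with a median of 0.06, and 6 higher and 3 lower with the length correction. The large heavy chain DYNC1H1 (-0.51, adjusted p = 4.8e-04; 0.175 on TPM), the intermediate chain DYNC1I1 (-0.40, adjusted p = 0.00278) and the light intermediate chain DYNC1LI1 (-0.43, adjusted p = 0.0042) were lower. The other intermediate chain, DYNC1I2, was higher (0.35, adjusted p = 0.00338), with the length correction too (0.00376) but not on TPM (0.0686). The small light chains DYNLL1 (0.56, adjusted p = 2.6e-04) and DYNLT1 (0.41, adjusted p = 0.00254) and the dynactin subunit DCTN3 (0.65, adjusted p = 4.3e-04) were higher, and DYNLT1 lost its call under the length correction. Tubulins, the track itself apart from TUBG1, had 7 of 13 genes higher (53.8%, against 18.9% of all genes) and 0 lower, with a median of 0.60. With the length correction 6 were higher and 0 lower, against 17.1% and 16.9% of all genes. TUBA1A rose from 448 ± 21.8 to 901 ± 66.5 CPM (SD, n = 3; log2 fold change 1.01, adjusted p = 6.7e-06), TUBB3 from 74.2 to 133 CPM (0.85, adjusted p = 1.8e-05) and TUBB2A from 641 to 1020 CPM (0.67, adjusted p = 4.0e-05). TUBA1A shares 14.3% of its exonic bases with TUBA1C and TUBB3 35.8% with an overlapping gene on the same strand.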

How the data were processed

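The 6 RNA sequencing libraries (3 PBS; 3 at 2 µM cisplatin; 48 h) came as 1 gene table each. In it the authors gave expected counts, estimates that may hold fractions and were not normalized, with deposited TPM values and mean transcript lengths; per the file headers the layout is that of RSEM. The submitters' processing notes name STAR 2.7.9 and the genome build GRCh38, or hg38. Quantifier version, annotation release and strand setting: not given in the sources used here. Symbols were matched for 61399 of 61552 genes, and GENCODE 29 gave positions for 58298.

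Rounded counts went into edgeR 4.0.16 (R 4.3.3) with filterByExpr (count minimum 10, total 15; 15063 genes kept), TMM factors and a quasi-likelihood fit with group as the only term; Benjamini-Hochberg adjusted p-values under 0.05 were called. Intervals are 95% and rest on the spread between libraries, and the depth of 9121180 to 16724285 counts limits genes of few counts. Mean transcript lengths were tested with limma 3.58.1 on the log2 scale. The length correction is an offset from a smooth curve on log2 length (span 0.3). The curve was fitted to each library's log2 CPM minus the gene's mean over all 6 libraries. RefSeq promoters were searched on both strands. The pipeline was tested on simulated counts.

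The members, their roles and all lists were chosen with earlier results of these data known. Every member is named. Values by library are given for up to 6 called members per role and direction with the smallest adjusted p and for KIF11, KIF20A, KIF23, KIF5B, KIF1B and KIF3A; up to 3 called genes per list and direction are named. Values by library of KIF1A, the TPM of HAP1 and KRT6A and the counts of KRT6A were added after their values were seen. So were the genes KLC1, KIFAP3, PRC1, MAPRE1, CENPE, KIFC3, CD14, DYNC1I2, EPCAM, SYP, MAP2 and ENO2. Alternatives were scaling by RLE, by upper quartile or by total count, 2 other count filters, the replicate number as a block, DESeq2 1.42.0, voom, limma on log2(TPM + 1), the length correction, glmTreat against 1.5-fold, protein-coding genes only and leaving out each library. Between replicates the chi-square divided by its degrees of freedom was 2.93 to 20.9, so no pair agreed within sampling noise. Protein sequences were not used here.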

Additional observations from a re-analysis of the deposited data

How the results depend on the processing

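Over 18 alternatives, the log2 fold changes of the 32 kinesins gave 572 comparisons with the reported values: 491 kept direction and side of the threshold, 43 lost a call, 15 gained one and 23 changed sign, all 23 in genes that passed in neither fit. With the length correction the sign changed for KIF11 (0.138), KIF13B (0.243), KIF16B (0.0022), KIF18B (0.0188), KIF1A (0.0543), KIF21B (0.208) and KIF5C (0.113), and on TPM for KIF14 (-0.0535), KIF21A (-0.133), KIF24 (-0.0857), KIF3B (-0.0769) and KIF9 (0.0308). Leaving out each library spanned 0 for KIF14 (-0.0618 to 0.0841), KIF18B (-0.131 to 0.0503), KIF21A (-0.0085 to 0.135), KIF21B (-0.453 to 0.186), KIF3B (-0.0319 to 0.0394) and KIF9 (-0.387 to 0.113). On log2(TPM + 1) with limma, 2 kinesins were higher and 4 lower, with 2 mitotic higher, 2 transport lower and a transport median of -0.25. With the length correction, 10 were higher and 3 lower, with 1 transport kinesin lower, a mitotic median of 0.31 and a transport median of 0.0282, which changed sign. With glmTreat against 1.5-fold, kinesins higher, kinesins lower, mitotic higher and transport lower all numbered 0. Over all genes, glmTreat called 304 higher and 177 lower and the TPM fit 1208 and 1653, against 2851 and 2901 on counts; fewer calls follow from the fold threshold in the first, and the cause was not tested in the second. Leaving out each library gave 4 to 6 kinesins higher, 6 to 9 lower, 4 to 6 mitotic higher, 4 to 5 transport lower, a mitotic median from 0.18 to 0.22, a transport median from -0.22 to -0.15, and 0 to 0 changed lengths. The transport median was -0.16 without PBS replicate 2 and -0.15 without PBS replicate 3. With the replicate number as a block, 6 kinesins were higher and 9 lower, with medians of 0.18 and -0.18; same-numbered libraries correlated at 0.07, 0.12 and -0.08 in their deviations, so the numbers were not taken as pairs. Genes of a few CPM, such as KIF27 and KIF26A, rest on few counts.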
